A study of Mus musculus with 6 samples.

Results

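The 10 genes described here are Tnfrsf12a, its ligand gene Tnfsf12 and 8 further receptor genes of the tumour necrosis factor (TNF) receptor superfamily, among 19321 genes with a symbol on the array. They were picked by symbol after earlier results of the same comparison were known, with Tnfrsf12a picked for its large change. Their changes between the groups are therefore a description, with no independent test behind them. Each gene had 1 probe, all 10 probes passed the filter on dim signal, and each platform symbol matched its RefSeq gene ID. For Cd40 the platform names a non-coding transcript record.

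The groups were cells given a Chd7 knockdown retrovirus (Chd7 KD, 3 samples) and cells given a control retrovirus (Control, 3 samples). All 6 samples were oligodendrocyte precursor cells, the glial progenitors that form myelinating oligodendrocytes, from E15.5 forebrains of Jcl:ICR mice. All were kept in FGF2 and PDGF-AA and collected 3 days after infection, and each was read on a one-colour array. The labels give neither the knockdown sequence, nor a sort for infected cells, nor whether replicates were separate cultures, so the error of each value may be technical.

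TNF-family receptors are cell surface proteins that bind trimeric ligands and pass the signal through TRAF adaptors, or through a death domain in the tail, to NF-kappaB, stress kinases or caspases. Tnfrsf12a encodes Fn14, the receptor for the cytokine TWEAK, a small receptor without a death domain that was first found as a gene induced by fibroblast growth factor. Signalling by TWEAK and Fn14 is known from wound repair, muscle wasting and inflammation of the nervous system.

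Tnfrsf12a carried the largest change of the set. Its promoter and that of Tnfrsf21, the called receptor genes that the RefSeq promoter table (GRCm38.p6) lists, are shown so that the sequence upstream of each can be read beside its values. Each runs 5′ to 3′ from 250 bases before to 50 bases after the annotated start. Capitals mark matches to GGGCGG, the Sp1 box, on either strand. The Tnfrsf12a window is chr17:23677400-23677699 on the minus strand, and the Tnfrsf21 window is chr17:43016305-43016604 on the plus strand.
Tnfrsf12a: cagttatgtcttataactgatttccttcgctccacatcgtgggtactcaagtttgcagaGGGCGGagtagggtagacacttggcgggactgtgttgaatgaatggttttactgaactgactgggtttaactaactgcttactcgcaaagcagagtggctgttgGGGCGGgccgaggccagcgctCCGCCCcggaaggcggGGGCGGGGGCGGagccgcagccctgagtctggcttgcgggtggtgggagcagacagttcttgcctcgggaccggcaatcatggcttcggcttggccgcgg
Tnfrsf21: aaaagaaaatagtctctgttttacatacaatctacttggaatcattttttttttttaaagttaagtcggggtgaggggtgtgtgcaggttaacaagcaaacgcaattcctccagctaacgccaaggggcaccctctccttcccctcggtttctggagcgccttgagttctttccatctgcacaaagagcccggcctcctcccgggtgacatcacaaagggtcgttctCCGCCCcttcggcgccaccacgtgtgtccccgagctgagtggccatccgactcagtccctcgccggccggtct
The Tnfrsf12a window held 5 Sp1 boxes and had a GC content of 59.7%, and that of Tnfrsf21 held 1 box at 53.7% GC, against a median of 52.7% over all 32851 listed promoters. An Sp1 box occurred in 35.7% of all listed promoters. Neither window held the kappaB form of GGG, any 2 bases and TTTCC (1.63% of all promoters), the AP-1 form TGANTCA (7.81%), TATAAA (13.6%) or CCAAT (37.4%), searched on both strands. Of the 10 genes 7 had an entry, and none of their windows held any of those last 4 forms. The Ngfr window held 4 Sp1 boxes. The Tnfrsf19 window from chr14:61037938 held 3, and the other listed for that gene, from chr14:61046806, held 0. These matches describe letters and not sites in use.

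Values below are log2 spot intensities after normalization unless another scale is named, and levels of different probes cannot be compared. Median raw signal was 83.4 to 89.4 per array against 58.9 to 61.9 for blanks, and the detection limit (blank mean plus 2 SD) was exceeded by 87.0% to 89.8% of probes. The slopes that join the scanner gains in the file headers formed a low set (Chd7 KD replicate 2 with Control replicates 1 and 2) and a high set (Chd7 KD replicates 1 and 3 with Control replicate 3), and these gain sets were treated as possible batches. Chd7 itself read 8.54, 8.44 and 8.48 in Chd7 KD against 9.44, 9.20 and 9.47 in Control, without overlap (log2 fold change -0.88, SE 0.0855). A dimmer second Chd7 probe read -0.48 (SE 0.0677).

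Tnfrsf12a read 8.95, 9.03 and 8.95 in Chd7 KD replicates 1 to 3, against 8.02, 7.92 and 7.96 in Control replicates 1 to 3. Every knockdown array lay above every control array, and the gap was far wider than the spread of 0.08 among the knockdown arrays or 0.10 among the controls. On the raw scale the spot gave 539, 478 and 526 in Chd7 KD against 256, 257 and 262 in Control. In the authors' processed intensities it gave 349, 351 and 323 in Chd7 KD against 160, 148 and 155 in Control. The means were 8.98 ± 0.044 in Chd7 KD and 7.97 ± 0.050 in Control (SD, n = 3 each), a log2 fold change of 1.01 (SE 0.0627, 95% interval 0.86 to 1.15) or 2.01-fold. The ratio of the authors' means was 2.21. The change ranked 9 from the top among 17390 genes tested. Over the other settings and the fits that left out an array, its log2 fold change stayed between 0.98 and 1.12, and it passed the threshold in each of the 21.

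**Figure D1:**
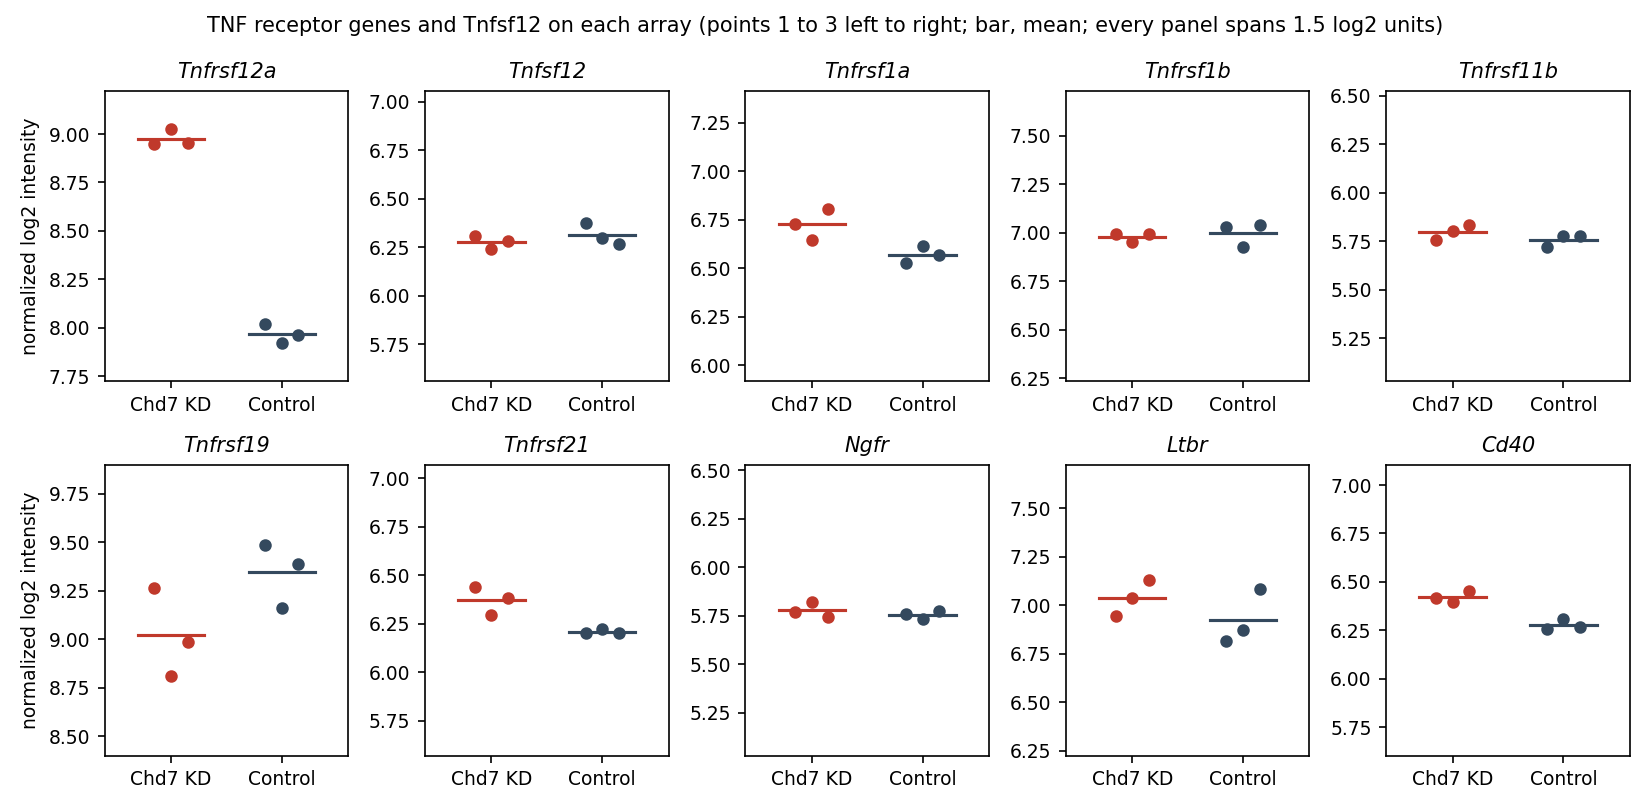
Normalized log2 intensity of the 10 genes on each array, with Chd7 KD (red) left of Control (dark) in each panel. Points are the 3 arrays of a group and bars their mean. Tnfrsf12a lies from 8.95 to 9.03 in Chd7 KD and from 7.92 to 8.02 in Control, while the groups of Tnfsf12, Tnfrsf1b, Tnfrsf11b, Tnfrsf19, Ngfr and Ltbr overlap.

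Over all genes, 1676 of 17390 (9.64%) passed an adjusted p of 0.05 in limma, 785 higher (4.51%) and 891 lower (5.12%) in Chd7 KD. Of the 10 genes, 3 rose (Tnfrsf12a, Tnfrsf21 and Cd40), none fell and 7 did not pass. Groups did not overlap for 4 of them, the 3 above and Tnfrsf1a, and for 29.9% of all genes tested. Since the genes were chosen on this comparison, nothing is read from these counts. Their median log2 fold change was 0.08, against 0.0013 over all genes tested.

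**Figure D2:**
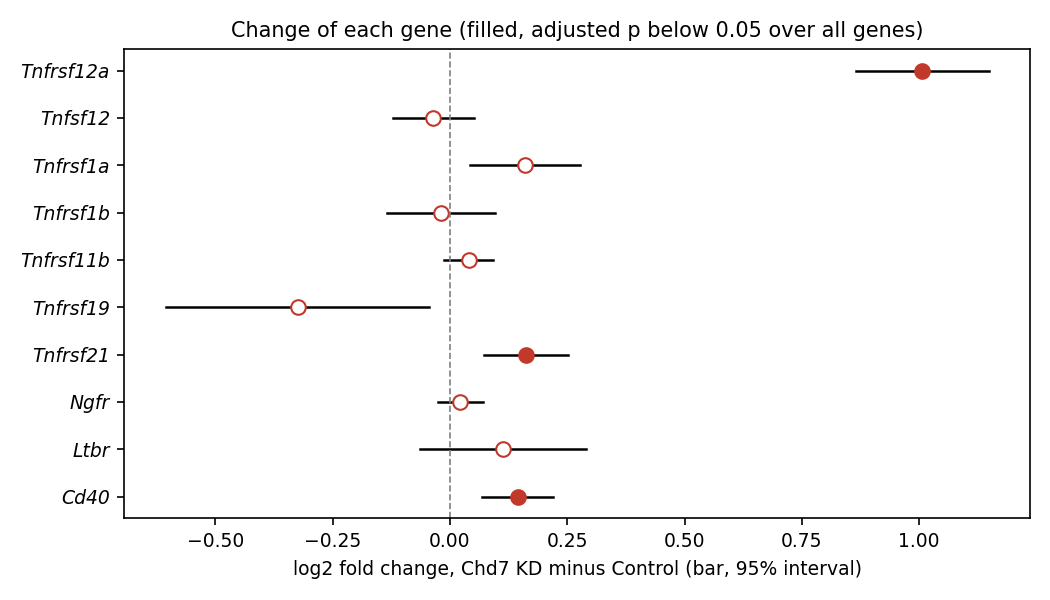
Log2 fold change of each gene, Chd7 KD minus Control, with its 95% interval from the fit across all genes. Filled points passed an adjusted p of 0.05. Tnfrsf12a stands at 1.01, and the other 9 lie between -0.32 and 0.16.

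The ligand gene of the receptor did not pass. Tnfsf12, which encodes TWEAK, read 6.31, 6.24 and 6.28 in Chd7 KD against 6.38, 6.30 and 6.27 in Control. The groups overlapped, with a log2 fold change of -0.04 (95% interval -0.12 to 0.05). Its authors' values were 21, 18 and 19 in Chd7 KD against 24, 20 and 19 in Control, where an array's median is 25, so the signal was dim in both groups. Tnfsf13, which lies beside it in RefSeq and encodes the ligand APRIL, read 0.09 without passing.

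Among receptors without a death domain, Cd40 rose slightly. It encodes a receptor best known from antigen-presenting cells. It read 6.42, 6.40 and 6.45 in Chd7 KD against 6.26, 6.31 and 6.27 in Control. The groups did not overlap, and the log2 fold change was 0.14 (SE 0.0334). In the authors' values the probe gave 26, 24 and 26 in Chd7 KD against 19, 21 and 19 in Control, a ratio of means of 1.29. An array's median is 25 there, so the Cd40 signal was dim as well. The gene of its ligand, Cd40lg, was above the detection limit on 0 arrays. The call was lost without any 1 of the 6 arrays (limma, adjusted p up to 0.0926), in the authors' values (0.051) and with gain set as a block (0.065), while the sign held in all 21 alternatives.

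Tnfrsf1b encodes TNF receptor 2, which has been linked to the proliferation of oligodendrocyte precursors during remyelination in mice. It read 6.99, 6.95 and 6.99 in Chd7 KD against 7.03, 6.93 and 7.04 in Control, so the groups overlapped (log2 fold change -0.02, 95% interval -0.13 to 0.10). Ltbr, the lymphotoxin beta receptor gene, read 6.95, 7.03 and 7.13 in Chd7 KD against 6.82, 6.87 and 7.09 in Control. Control replicate 3 lay within the knockdown range, and the log2 fold change was 0.11 (95% interval -0.06 to 0.29). It was 0.058 without Control replicate 1, 0.066 without Chd7 KD replicate 3 and 0.19 without Control replicate 3.

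Tnfrsf19 encodes TROY, an orphan receptor that can take the place of p75 in the receptor complex for Nogo, an inhibitor of axon growth. It was the one receptor gene with a sizeable negative value, at 9.26, 8.81 and 8.99 in Chd7 KD against 9.49, 9.16 and 9.39 in Control. Knockdown replicate 1 lay above Control replicate 2, so the groups overlapped. The difference between arrays of the same number was -0.22, -0.35 and -0.40, negative in 3 of 3. The log2 fold change was -0.32 (SE 0.124) and did not pass in the main fit, which is unpaired. With the replicate number as a block Tnfrsf19 passed (limma, adjusted p = 0.0142), where 14.7% of all genes passed. The authors' values were 441, 293 and 331 in Chd7 KD against 510, 400 and 493 in Control, a ratio of means of 0.759.

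Among the death-domain receptors, Tnfrsf21 rose slightly. It encodes death receptor 6, which in mice restrains oligodendrocyte maturation and acts in axon pruning. It read 6.44, 6.29 and 6.38 in Chd7 KD against 6.20, 6.22 and 6.20 in Control, without overlap, although knockdown replicate 2 lay only 0.07 above the control array of its number. The log2 fold change was 0.16 (SE 0.0399). The authors' values were 27, 20 and 23 in Chd7 KD against 17, 17 and 16 in Control, a ratio of means of 1.40. An array's median is 25 there, so the Tnfrsf21 signal was dim too. The call was lost without any 1 array other than knockdown replicate 2 (limma, adjusted p up to 0.114), in the authors' values (0.0691), without the intensity trend (0.06) and with gain set as a block (0.0777).

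Tnfrsf1a encodes TNF receptor 1, the main death-domain receptor for TNF. It read 6.73, 6.65 and 6.81 in Chd7 KD against 6.52, 6.62 and 6.57 in Control. The groups did not overlap, but knockdown replicate 2 and Control replicate 2 were only 0.03 apart, and the log2 fold change of 0.16 (SE 0.0518) did not pass. Its value kept its sign in all 21 alternatives, between 0.08 and 0.24. Ltbr and Tnfrsf1a lie near each other in RefSeq with Scnn1a between them, which read -0.01.

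Ngfr encodes p75, the receptor shared by the neurotrophins. It was above the detection limit on 2 of 3 Chd7 KD arrays and 2 of 3 Control arrays. It read 5.77, 5.82 and 5.75 in Chd7 KD against 5.76, 5.74 and 5.78 in Control, which is near the floor of the scale, so a change would be hard to see. Tnfrsf11b encodes osteoprotegerin, a secreted decoy receptor for the ligands RANKL and TRAIL. It was above the limit on 3 of 3 Chd7 KD arrays and 2 of 3 Control arrays, and read 5.76, 5.81 and 5.83 in Chd7 KD against 5.72, 5.78 and 5.78 in Control. Neither gene passed.

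None of the measured chromosomal neighbours of Tnfrsf12a passed. Of the 3 protein-coding genes on each side in RefSeq, a set chosen after the values were seen, Bicdl2, Thoc6, Hcfc1r1, Cldn6, Cldn9 and 1520401A03Rik had log2 fold changes of -0.07 (Thoc6) to 0.02 (Cldn9), and none passed. The 5 genes whose profile over the 6 arrays lay nearest to Tnfrsf12a, by root-mean-square difference of gene-centred log2 values, were Apln (0.116), Stc1 (0.138), Trf (0.147), Lbhd2 (0.148) and Adam12 (0.150). Apln encodes the peptide ligand apelin, Stc1 the secreted glycoprotein stanniocalcin 1, Trf the iron carrier transferrin and Adam12 a membrane metalloprotease. Their log2 fold changes were 0.80 (Stc1) to 0.92 (Apln), and values near that of Tnfrsf12a follow from how these genes were picked. A second Adam12 probe read 0.06, and that probe stood for the gene when Chd7 KD replicate 1 or 2 was left out.

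Of 18 other TNF receptor genes tested, none passed in either direction, against 9.64% of all genes tested. Their median log2 fold change was 0.01. Their values ran from -0.04 for Tnfrsf22 to 0.38 for Fas, which encodes the death receptor for Fas ligand. Fas read 8.35, 8.54 and 8.50 in Chd7 KD against 7.68, 8.44 and 8.13 in Control. Control replicate 2 lay above knockdown replicate 1, so the groups overlapped. The Fas log2 fold change was 0.18 without Control replicate 1 and 0.56 without Control replicate 2. With the replicate block Fas (limma, adjusted p = 0.0282) and Tnfrsf13b (0.037, log2 fold change 0.06) passed, where 14.7% of all genes passed. Without Control replicate 1 Tnfrsf13b passed as well (0.0306). Several of these 18 genes read near the floor of the scale, so a change in them would be hard to see. Among them were Tnfrsf9 (means 5.76 in Chd7 KD and 5.77 in Control) and Tnfrsf25 (5.78 and 5.77).

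Of 13 other TNF ligand genes tested, none passed, against 9.64% of all genes tested. Their log2 fold changes had a median of -0.00048 and a range of -0.05 to 0.09. Their group means ran from 5.76 (Tnfsf13b in Control) to 6.29 (Tnfsf9 in Control), toward the floor of the scale. A change in such dim probes would be hard to see. Without Control replicate 3, 1 passed. Tnf was above the detection limit on 0 of 3 Chd7 KD arrays and 1 of 3 Control arrays, and Tnfsf10 (TRAIL) and Eda were above it on 0 arrays.

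Of 10 tested neurotrophin and p75 partner genes, 1 rose and 1 fell, against 4.51% and 5.12% of all genes tested. Ntrk3, the gene of the receptor for neurotrophin NT-3, read 6.60, 6.48 and 6.57 in Chd7 KD against 6.41, 6.37 and 6.37 in Control (log2 fold change 0.17, SE 0.0414). Bex3, an adaptor that binds the p75 tail, read 11.41, 11.38 and 11.39 in Chd7 KD against 11.69, 11.71 and 11.63 in Control (-0.28, SE 0.0653). Neither pair of groups overlapped. Each call was lost in 4 of 6 fits that left out an array (limma, adjusted p up to 0.13 for Ntrk3 without Chd7 KD replicate 1 and 0.101 for Bex3 without Control replicate 2). For Ntrk3 these were the fits without Chd7 KD replicates 1 or 3 or Control replicates 2 or 3, and for Bex3 those without any knockdown array or Control replicate 2. Both calls were also lost in the authors' values (limma, adjusted p = 0.0615 for Ntrk3 and 0.0594 for Bex3). The same held with gain set as a block (0.0834 and 0.064), and for Bex3 with median scaling (0.228). Sort1, which encodes the p75 partner sortilin, read 0.21 without passing.

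**Figure D3:**
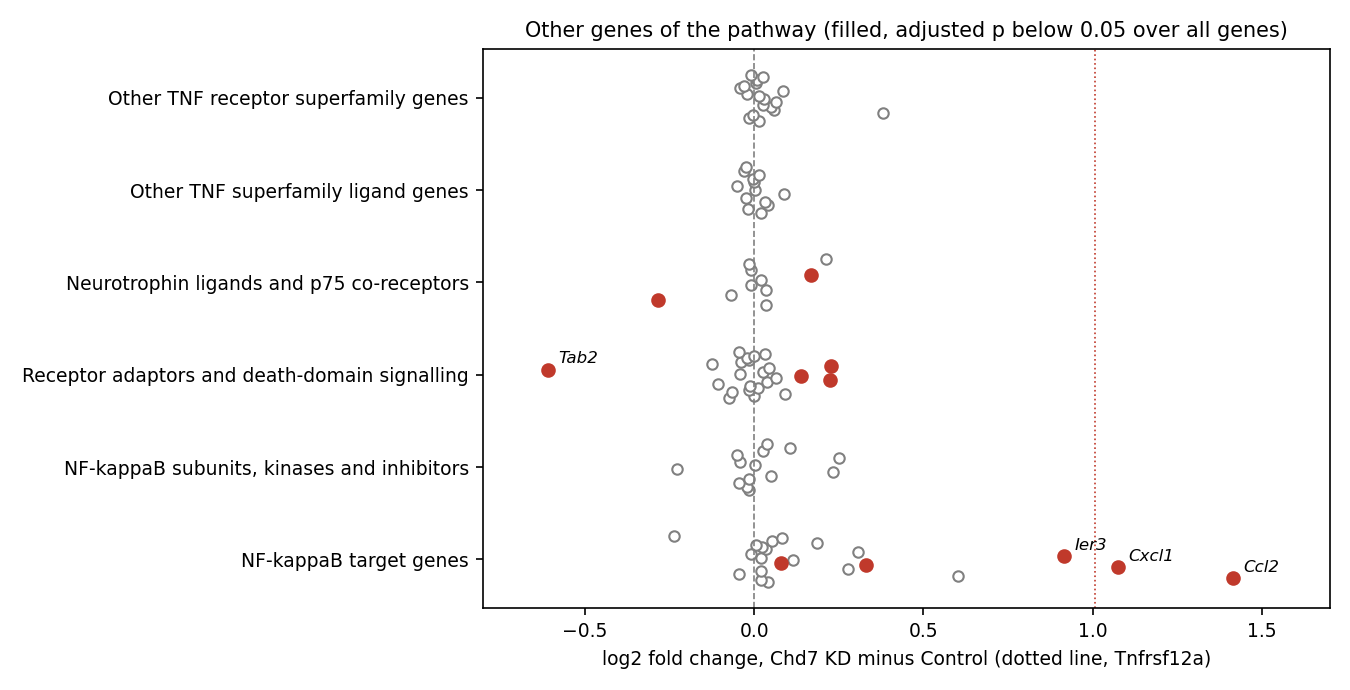
Log2 fold change of each tested gene in the 6 lists, Chd7 KD minus Control. Filled points passed an adjusted p of 0.05, and the dotted line marks Tnfrsf12a at 1.01. Most genes crowd at 0, with Ccl2 (1.41), Cxcl1 (1.07) and Ier3 (0.91) to the right and Tab2 (-0.61) to the left.

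Downstream of the receptors, 3 of 24 tested adaptor and death-domain genes rose, 1 fell and 20 did not pass. Of all genes tested 4.51% rose and 5.12% fell. The largest change in this list was in Tab2, which links TRAF6 to the kinase TAK1. It read 7.64, 7.72 and 7.73 in Chd7 KD against 8.36, 8.31 and 8.25 in Control, with the groups wide apart. Its log2 fold change was -0.61 (SE 0.0614, limma, adjusted p = 0.00121). The Tab2 call held without any 1 array and was lost within both gain sets (-0.61 and -0.56). The gene of its kinase, Map3k7 (TAK1), read -0.11 on its brighter probe and 0.0051 on the other, and its relatives Tab1 and Tab3 read 0.02 and 0.05, none of which passed.

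Of the genes that rose, Rbck1 (HOIL-1) and Rnf31 (HOIP) encode subunits of the enzyme that builds linear ubiquitin chains, and Tank a TRAF-binding protein. Rbck1 read 7.19, 7.16 and 7.11 in Chd7 KD against 6.97, 6.90 and 6.92 in Control (log2 fold change 0.23), and Sharpin, the third subunit gene, read -0.04. Rnf31 changed by 0.14 and Tank by 0.23. The calls of Rnf31 and Tank were lost without any 1 of the 6 arrays (limma, adjusted p up to 0.147 and 0.149), and that of Rbck1 without Chd7 KD replicates 1 or 2 or Control replicates 2 or 3 (up to 0.0944). The Rbck1 call was also lost in the authors' values (limma, adjusted p = 0.0593) and with gain set as a block (0.0506). Traf2, which binds Fn14, read -0.02. Cflar, the gene of a caspase-8 inhibitor, had 2 probes of nearly equal signal that differed. The one that stood for the gene read -0.07 and did not pass, and the other read 0.20 and passed (limma, adjusted p = 0.0375), so a near tie in signal decided that Cflar was counted as not passing.

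Of 14 tested genes of NF-kappaB subunits, kinases and inhibitors none passed, against 9.64% of all genes tested. Their median log2 fold change was -0.0056. Relb read 0.10, Nfkb2 0.05, Rela 0.03 and the inhibitor gene Tnfaip3 (A20) 0.04. Nfkbia, the gene of the feedback inhibitor IkappaB alpha, read 9.20, 9.02 and 8.89 in Chd7 KD against 8.87, 8.84 and 8.70 in Control, without overlap (0.23). With the replicate block Nfkbia (limma, adjusted p = 0.0479) and Nfkbiz (0.0145, log2 fold change 0.25) passed as higher and Nfkbib (0.0216, -0.23) as lower. Of all genes tested 14.7% passed with that block.

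Of 22 tested genes known as NF-kappaB targets, 5 rose, none fell and 17 did not pass, and 19 of 22 had positive values (median 0.07). Of all genes tested 4.51% rose, and 8875 of 17390 had positive values. The list of targets was written with earlier results of these arrays known, so its count is not independent evidence of a direction. Of the 5, Cxcl2 passed the filter on dim signal only through its Chd7 KD arrays. Ccl2, a monocyte-attracting chemokine gene, read 8.26, 7.64 and 7.40 in Chd7 KD against 6.36, 6.36 and 6.34 in Control (log2 fold change 1.41, SE 0.177). The neutrophil chemokine gene Cxcl1 read 7.79, 7.25 and 7.04 in Chd7 KD against 6.43, 6.24 and 6.19 in Control (1.07, SE 0.163). Ier3, an immediate early survival gene, read 9.06, 8.67 and 8.93 in Chd7 KD against 8.03, 8.06 and 7.83 in Control (0.91, SE 0.106). All 3 kept their call without any 1 array, and their groups lay wide apart. Ccl2 and Cxcl1 did not pass within the high gain set, where their log2 fold changes were 1.495 and 1.23, nor Ier3 within the low one (0.63). Each of those sets has 1 array on one side.

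Cxcl10 rose as well, at 6.72, 6.50 and 6.34 in Chd7 KD against 6.25, 6.16 and 6.17 in Control (log2 fold change 0.33). The Cxcl10 call was lost without Chd7 KD replicates 1 or 2 or Control replicates 2 or 3 (limma, adjusted p up to 0.111). It was also lost in the authors' values (0.0808), without the intensity trend (0.0903) and with gain set as a block (0.0716). Cxcl2 was above the detection limit on 3 of 3 Chd7 KD arrays and 0 of 3 Control arrays. It was at least 1.04-fold higher in Chd7 KD, against the lowest detected signal of each array. Cxcl2 passed the filter on dim signal only through the group where it was higher. Its call (limma, adjusted p = 0.0161) is therefore no support for a rise. The Cxcl2 call was lost with median scaling (0.16) and without the intensity trend (0.0893). Cxcl2 was not tested when a Chd7 KD array was left out, or when every array had to lie above the limit. Ccl20 read 6.84, 6.13 and 6.04 in Chd7 KD against 5.76, 5.72 and 5.73 in Control, where 1 of 3 arrays lay above the limit. The groups did not overlap, but Ccl20 did not pass with all arrays. Its log2 fold change of 0.60 is of uncertain size, since the other 2 control arrays were at background. It passed without Chd7 KD replicate 1 (limma, adjusted p = 0.00322, log2 fold change 0.34), without Chd7 KD replicate 3 (0.0394, 0.74), with the replicate block (0.00829), with median scaling (0.0221) and with a normexp offset of 16 (0.0282). Icam1 read 0.02, Vcam1 -0.24, Sod2 0.19 and Bcl2l1 0.02, and Il6 was above the limit on 0 arrays. These and the other examples that did not pass were picked after their values were seen.

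**Figure D4:**
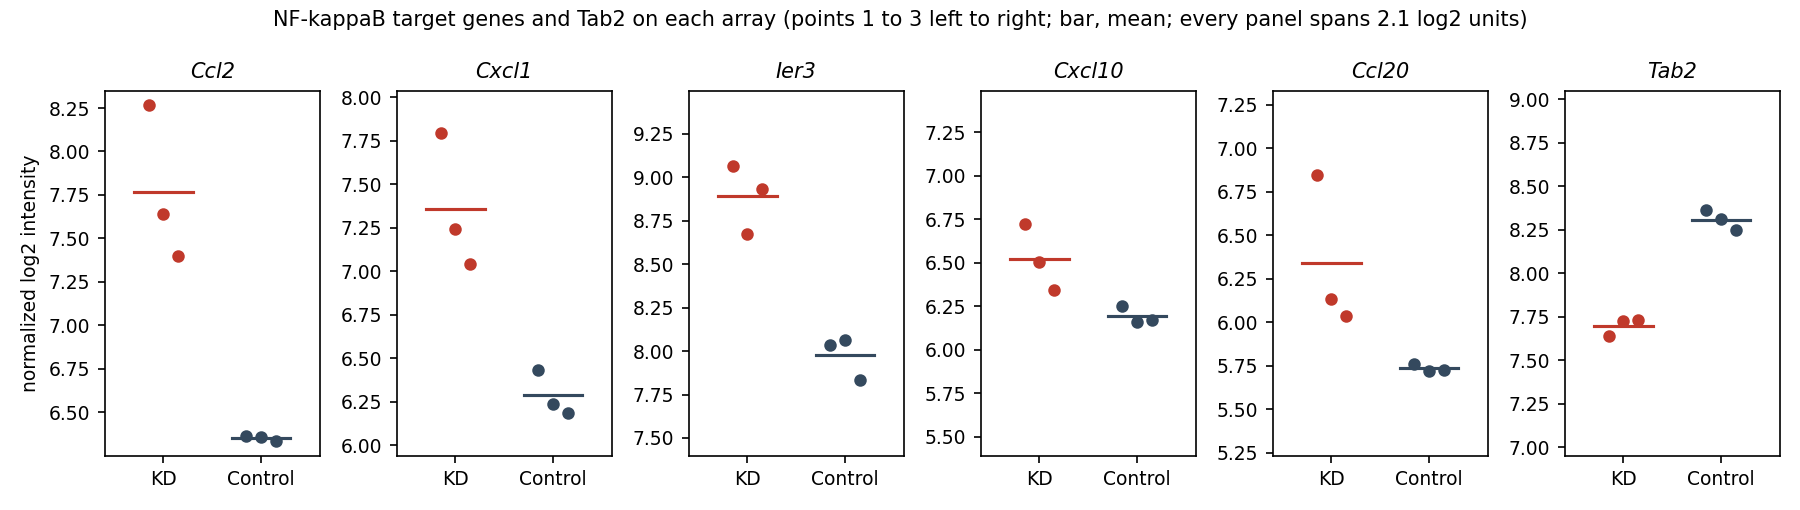
Normalized log2 intensity of 5 NF-kappaB target genes and Tab2 on each array, with Chd7 KD (red) left of Control (dark). Points are the 3 arrays of a group and bars their mean. Replicate 1 is the highest knockdown array for the 5 target genes, for example 8.26 for Ccl2 against 7.40 for replicate 3, while the 3 knockdown arrays of Tab2 lie between 7.64 and 7.73.

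Tnfrsf12a read alike on the knockdown arrays, while Ccl2 and Cxcl1 spread widely. The range over these arrays was 0.08 for Tnfrsf12a, 0.87 for Ccl2, 0.75 for Cxcl1 and 0.39 for Ier3. Replicate 1 was the highest knockdown array for 13 of the 22 target genes, 459 of the 785 genes that rose and 6121 of all 17390 genes. Without both arrays numbered 1 the log2 fold change of Tnfrsf12a was 1.05.

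Markers of other cell types were read on the same arrays. Of 7 tested precursor markers 4 fell, among them Pdgfra (-1.36) and Olig2 (-0.35), and their summed linear intensity was 9415 to 10699 in Chd7 KD and 12065 to 14212 in Control. The brightest of these probes, Olig1, weighs most in the sums (means 12.80 in Chd7 KD and 13.04 in Control). Its groups overlapped, and it did not pass in the main fit. The Olig2 call was lost without Chd7 KD replicates 2 or 3 (limma, adjusted p up to 0.0696) and with median scaling (0.132). Of 8 neuronal markers 3 fell (Dcx, Map2 and Elavl3), with sums of 1088 to 1309 in Chd7 KD and 1396 to 1550 in Control. The brightest probes, Elavl3 (means 8.49 in Chd7 KD and 8.80 in Control) and Dcx (8.06 and 8.77), weigh most in these sums. Snap25, Rbfox3 and Syt1 had positive values, and Map2 fell by little (-0.12). Of all genes tested 5.12% fell. Of 8 astrocyte markers none passed, 4 were positive and their median was 0.0095. Their sums were 8372 to 8867 in Chd7 KD and 7537 to 7969 in Control, but without Gja1 (0.44), left out after its value was seen, the sums overlapped at 4571 to 5247 in Chd7 KD and 4394 to 5747 in Control. With the replicate block Gja1 (limma, adjusted p = 0.0103) and Syt1, a neuronal marker (0.0178, 0.20), passed as higher. Slc1a2, an astrocyte marker (0.0178, -0.47), Olig1 (0.038), Nkx2-2 (0.0279) and the neuronal marker Tubb3 (0.0336) passed as lower with that block. Of all genes tested 14.7% passed with it. Slc1a2 and Elavl3 have 2 probes each, and only the brighter is given here.

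For microglia, a cell type that responds to TNF ligands, none of 8 tested markers passed, the sums overlapped at 589 to 608 in Chd7 KD and 579 to 594 in Control, and Tmem119 was above the limit on 0 arrays. None of 8 vascular and fibroblast markers passed (555 to 615 in Chd7 KD and 558 to 591 in Control). Some markers of both sets read near the floor of the scale. Among them were Ptprc (means 5.77 in Chd7 KD and 5.76 in Control) and Cdh5 (5.78 and 5.77), while Cd68 read 6.68 and 6.64. The normexp offset of 50 is part of each marker's intensity, so a change in such dim markers would be hard to see in the sums. In these bulk samples more cells of a type and more RNA per cell cannot be told apart. The part of the differences in precursor, neuronal and astrocyte markers in the change of Tnfrsf12a was not tested.

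Within the low and the high gain set, each of 2 arrays against 1, the log2 fold change of Tnfrsf12a was 1.05 and 0.99. Any call within a gain set assumes that the lone array varies like the others, and these values are a description. Cd40 read 0.12 and 0.17 and Tnfrsf21 0.08 and 0.21 in the low and high sets, and neither passed there. With the gain set as a block Tnfrsf12a read 1.02.

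**Figure D5:**
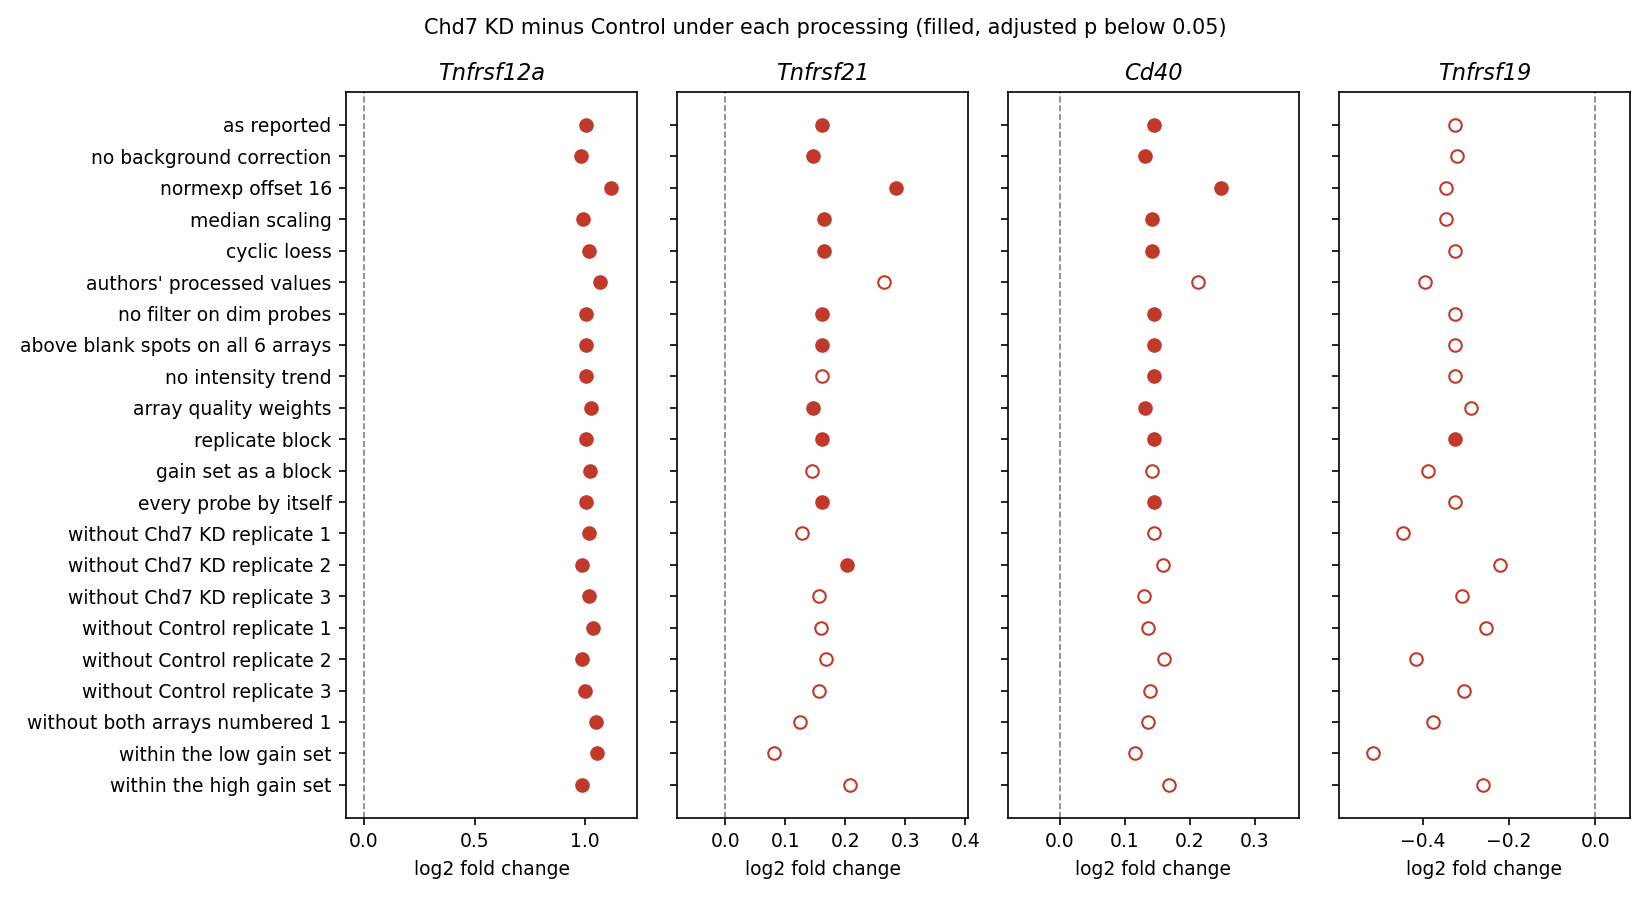
Log2 fold change of Tnfrsf12a, Tnfrsf21, Cd40 and Tnfrsf19, Chd7 KD minus Control, under each processing. Filled points passed an adjusted p of 0.05. Tnfrsf12a stays between 0.98 and 1.12 and is filled throughout, Tnfrsf21 and Cd40 are open in 11 settings each, and Tnfrsf19 is filled only with the replicate block.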

How the data were processed

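RNA of 6 samples was amplified as amino allyl RNA, coupled to Cy5 and hybridised to one-colour TORAY arrays, per the labels' protocols. The deposited intensity is the median of a spot at 635 nm, where least squares joined the 3 scanner gains according to the headers. The sources used here name neither software nor genome build. The authors' second table holds intensity values scaled to a median of 25 on each array. How they were made is not stated there.

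Intensities were corrected with normexp (offset 50, no local background, which followed the spot signal at a correlation of logs of 0.957 to 0.981), quantile normalized and compared with limma 3.58.1 (statmod 1.5.0, R 4.3.3), two-sided, with an intensity trend and Benjamini-Hochberg adjustment over 17390 genes. A probe was tested where its raw signal exceeded the blank mean by 2 SD on at least 3 of 6 arrays, and 1 probe with bad flags was left out. The brightest probe stood for a gene. The platform annotation gave 1 symbol for 20690 probes, none for 2783 and several for 0. Intervals are at 95%. Figures were drawn with matplotlib 3.10.9.

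The 10 genes and the lists were chosen with earlier results of these data known. Named genes were Chd7, the 10, up to 5 called members of each list by smallest p, Pdgfra, Olig2 and the 5 nearest profiles. Others were picked after their values were seen.

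Both groups carry the numbers 1 to 3. Deviations from group means correlated at 0.36, 0.38 and 0.23 between arrays of the same number. That equal numbers belong together rests on these correlations alone. The main fit did not use the numbers, so all main values and calls are unpaired. They entered only as the replicate block, an alternative fit in which 2551 genes passed against 1676 in the main fit. Promoters came from RefSeq (GRCm38.p6). Alternatives are given at the end.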

Additional observations from a re-analysis of the deposited data

How the results depend on the processing

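Tnfrsf12a passed in all 21 alternatives, 2 of which set 2 arrays against 1, and Chd7 in all but the low and high gain sets (-0.88 and -0.95). The count of the 10 genes that rose was 3, and it was 1 in the authors' values, with gain set as a block, within each gain set and without both arrays numbered 1, 1 to 2 when an array was left out, and 4 at a threshold of 0.1, where Tnfrsf1a passed. The count that fell was 0, and 1 with the replicate block (Tnfrsf19). Over all lists 9 genes rose and 2 fell. Those that rose numbered 16 with the replicate block or at a threshold of 0.1, 4 in the authors' values or with gain set as a block, 3 and 1 within the low and high gain sets, and 4 to 9 when an array was left out. Those that fell numbered 1 with median scaling, in the authors' values, without both arrays numbered 1 and with gain set as a block, 3 with the replicate block or at a threshold of 0.1, 0 within each gain set, and 1 to 2 when an array was left out. By list, adaptor genes that rose ranged from 0 to 4, target genes from 1 to 8, neurotrophin partners from 0 to 2, other receptors from 0 to 2, other ligands from 0 to 1 and NF-kappaB components from 0 to 2. The count over all genes was 1676, against 2551 with the replicate block, 2690 at a threshold of 0.1, 760 to 1460 when an array was left out, 794 without both arrays numbered 1, and 47 and 40 within the gain sets, where fewer arrays were compared. Signs turned for small values that did not pass: Tnfrsf1b with array weights (0.0026) and without Control replicate 3 (-0.055 to 0.00025 over the fits that left out an array), Ngfr without Chd7 KD replicate 2 (-0.00034 to 0.038 over those fits) and within the high gain set (-0.018), and Tnfsf12 (0.029) and Ltbr (-0.047) within that set. The cause was not tested. The choices without both arrays numbered 1, within gain sets and without Gja1 were made after seeing the data. Scaling moved the median of all genes by less than 0.1 log2 units. The offset compresses dim probes: with an offset of 16 Tnfrsf21 read 0.28 and Cd40 0.25. The 3 arrays per group and signals near the blank level limit what can be seen for Ngfr, Tnfrsf11b and Cxcl2. The same limit holds for the other TNF ligand genes and several of the other TNF receptor genes.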

Other observations

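Of the 3 protein-coding genes on each side of the other family members in RefSeq, a set chosen after the values were seen, Spop (-0.58) and Phb (0.41) near Ngfr and Cdh22 (0.31) near Cd40 were those that passed in limma, while Ngfr itself read 0.02. Over all genes tested 9.64% passed, and nothing is read from these neighbours. Spop encodes a substrate adaptor of a ubiquitin ligase, Phb the mitochondrial protein prohibitin and Cdh22 a cadherin. Beside Tnfrsf21, Cd2ap, an actin-linked adaptor gene, read -0.20 without passing.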
